A study of Mus musculus with 6 samples.

Results

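Immediate early genes of the Egr, Nr4a and Klf families, with Ier2, were followed through peak lists of open chromatin from mouse bone marrow. The 10 genes were Egr1, Egr2, Egr3, Nr4a1, Nr4a2, Nr4a3, Klf2, Klf4, Klf6 and Ier2, of 21627 protein-coding genes on the chromosomes used. Each peak was given to the protein-coding gene whose span lay nearest to its summit, and a gene kept the peaks with a summit inside it or within 100 kb. In this way 574 of the 525802 deposited peaks were assigned to the 10 genes. Where peaks of any library overlapped they were merged, which left 120 of 113038 merged regions at the 10 genes.

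Immediate early genes are switched on within minutes of a stimulus, from factors already present in the cell and with no need for new protein. Serum response factor at CArG boxes and CREB at cyclic AMP response elements are their best known activators. The Egr genes encode zinc finger factors that bind GC-rich sites, the Nr4a genes encode orphan nuclear receptors whose activity follows their amount, and the Klf genes encode zinc finger factors that bind CACCC and GC boxes. Tissue digestion and cell sorting are known to induce such genes in freshly isolated cells.

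The cells were mesenchymal stem and progenitor cells (MSPCs), the stromal cells that support blood formation. All mice were female and carried Lepr-Cre;LSL-tdTomato+/-, in which cells that express or once expressed the leptin receptor are red. The DOX group had received 4 intravenous doses of doxorubicin at 5 mg/kg, 1 week apart, from an age of 8 to 10 weeks. Doxorubicin is an anthracycline that poisons topoisomerase II. The PBS group had received saline buffer on the same schedule. Marrow was taken 8 weeks after treatment and digested with enzymes at 37 °C for 25 min in both groups. Cells were then sorted for tdTomato. The labels do not say whether DOX and PBS libraries were prepared together, and the part of handling in the signal was not tested. Omni-ATAC, in which a transposase cuts open DNA in washed nuclei, gave 3 libraries a group. The labels call the libraries biological replicates but do not state how many mice each holds. P-values therefore measure the spread between libraries, part of which may be technical.

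The lists held 91026, 91060 and 100642 peaks in DOX, against 88348, 89264 and 65462 in PBS. DOX libraries were also deeper: the background pileup solved from the authors' fold enrichment was 1.72, 1.67 and 2.22 reads in DOX and 1.27, 1.10 and 0.558 reads in PBS. Unless the deposited lists are named, numbers and ranks come from equal-length lists, cut in every library to its 65462 strongest peaks, as many as PBS replicate 3 has. In these lists the median peak was 505, 516 and 542 bp wide in DOX and 439, 476 and 328 bp in PBS, and all 3 DOX libraries were both deeper and wider than all 3 PBS libraries. The deepest library, DOX replicate 3, had the widest peaks, and the shallowest, PBS replicate 3, the narrowest. Within a group width did not follow depth throughout. PBS replicate 1 was deeper than PBS replicate 2 but had narrower peaks, and so was DOX replicate 1 beside DOX replicate 2. The part of depth in any width or peak number below was not tested. Of 10 MSPC genes, 8 to 9 had a summit within 1 kb of a gene end in each library, and only Prrx1 never had one. B cell, myeloid, erythroid, T cell and endothelial lists of 5 genes each had at most 2 such genes, and Cd79a, Pax5, Elane, Mpo, Gata1, Cd3e, Cdh5 and Pecam1 had none in any library. In such bulk libraries fewer cells with an open site and less opening per cell cannot be told apart.

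Promoter windows of 300 bases, from 250 before to 50 after a listed start, were read from RefSeq, build GRCm38.p6, and 7 of the 10 genes matched: Egr2, Nr4a1, Nr4a2, Nr4a3, Klf2, Klf4 and Klf6. Every one of the 7 had at least 1 listed start inside a peak of the equal-length lists in all 6 libraries. Egr2 has several listed starts, and the one at 67535499 was inside a peak in only 5. Of all 32585 listed starts, counted singly, 38.2% were inside a peak in all 6. The 4 windows below are shown because their starts lay inside peaks in all DOX and PBS libraries and because they hold the elements that immediate early genes are known for. Capitals mark the CArG box, TGACG, which is the core of the cyclic AMP response element, the Egr site GCGNGGGCG and the TATA sequence TATAAA, each on either strand.
Egr2, chr10:67537619-67537918, plus strand: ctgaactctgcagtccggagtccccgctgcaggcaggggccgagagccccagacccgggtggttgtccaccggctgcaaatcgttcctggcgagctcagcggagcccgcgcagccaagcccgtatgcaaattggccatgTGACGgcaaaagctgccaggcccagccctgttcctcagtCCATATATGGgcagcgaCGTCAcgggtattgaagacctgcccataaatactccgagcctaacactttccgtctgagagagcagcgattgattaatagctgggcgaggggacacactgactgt
Nr4a1, chr15:101266596-101266895, plus strand: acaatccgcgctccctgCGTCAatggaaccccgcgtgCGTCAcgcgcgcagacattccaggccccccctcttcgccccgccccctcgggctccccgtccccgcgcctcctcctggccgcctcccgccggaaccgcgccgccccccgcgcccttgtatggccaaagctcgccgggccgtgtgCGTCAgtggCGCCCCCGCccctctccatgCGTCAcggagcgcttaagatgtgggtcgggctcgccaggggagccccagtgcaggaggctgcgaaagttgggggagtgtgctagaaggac
Nr4a3, chr4:48045055-48045354, plus strand: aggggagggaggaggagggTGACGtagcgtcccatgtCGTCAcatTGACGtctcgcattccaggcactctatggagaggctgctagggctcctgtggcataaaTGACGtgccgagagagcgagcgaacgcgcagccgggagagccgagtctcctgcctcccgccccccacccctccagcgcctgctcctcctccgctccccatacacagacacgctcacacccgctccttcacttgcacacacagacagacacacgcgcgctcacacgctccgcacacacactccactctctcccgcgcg
Klf2, chr8:72318812-72319111, plus strand: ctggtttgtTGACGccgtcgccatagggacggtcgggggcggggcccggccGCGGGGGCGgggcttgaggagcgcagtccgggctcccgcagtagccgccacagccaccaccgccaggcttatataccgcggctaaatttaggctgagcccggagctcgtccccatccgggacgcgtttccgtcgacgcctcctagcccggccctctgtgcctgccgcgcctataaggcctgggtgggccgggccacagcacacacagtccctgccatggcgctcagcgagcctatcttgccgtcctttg

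TGACG was in a window of 6 of the 7 genes, all but Klf6, and in 20.8% of 32817 promoter windows of that length. Nr4a1, Nr4a2 and Nr4a3 had 4 matches each, at -233, -213, -69 and -40 from the start in Nr4a1 and at -231, -213, -205 and -147 in Nr4a3. The Egr site GCGNGGGCG was in windows of Nr4a1, Nr4a2, Klf2 and Klf4, and in 5.56% of all windows. Egr2 alone of the 7 had a CArG box, at -72 from the listed start in the window shown, with the TGACG matches at -111 and -55 on either side of it. CArG boxes were in 1.63% of all windows. GGGCGG, a GC box, was in windows of all 7 genes and in 35.6% of all windows. CACCC was in 4 of the 7 and in 57.5% of all windows, and TATAAA was in Nr4a2 only and in 13.6% of all windows. Neither TGANTCA, the AP-1 site, which 7.81% of windows hold, nor the palindrome in which TGACG and its reverse complement share CG, which 1.79% hold, was in any of them. GGGCGG and GCGNGGGCG can overlap each other. Egr2 has several listed starts and so more than 1 window, and the shares of all windows count each window. These matches describe letters in a window and not bound sites.

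The first comparison asked whether the 10 genes had more or fewer open regions after doxorubicin. At an adjusted p under 0.05 none of the 8 that could be tested did. In the equal-length lists the 10 genes together had 51, 51 and 51 merged regions in DOX and 46, 47 and 52 in PBS. Their peak numbers were 61, 59 and 56 in DOX, against 66, 56 and 93 in PBS. PBS replicate 3, the shallowest library, was highest in both and by far in peaks, and at Egr1 it listed as 9 peaks a domain that each DOX library listed as 2. Merged regions are given beside peaks for that reason.

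Among the Egr genes, Egr1 had 5, 5 and 6 regions in DOX and 4, 5 and 7 in PBS. Its peaks numbered 6, 7 and 7 in DOX, against 9, 7 and 16 in PBS. The groups overlapped on both counts. Egr2, which also controls Schwann cell myelination, had 1, 2 and 1 regions in DOX and 2, 1 and 1 in PBS. Egr3 had 2 regions in every library of both groups.

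Nr4a1, which encodes Nur77, had 9, 9 and 9 regions in DOX and 8, 9 and 9 in PBS, with 9, 10 and 9 peaks in DOX and 10, 11 and 20 in PBS. Nr4a2, which encodes Nurr1, had 4 regions in each DOX library and 4, 3 and 3 in PBS. Nr4a3, which encodes Nor1, had 1, 1 and 2 regions in DOX and 1, 1 and 2 in PBS. The groups overlapped at each of the 3 genes.

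Klf2, a flow-induced factor of endothelium, had 6, 6 and 5 regions in DOX and 6, 6 and 8 in PBS. Klf4, one of the reprogramming factors, had 7, 6 and 6 in DOX and 6, 6 and 8 in PBS. Klf6, a broadly expressed growth regulator, had 13 in each DOX library and 10, 11 and 9 in PBS. Ier2, a nuclear protein of the early serum response, had 3 regions in every library of both groups. Klf6 was thus the gene with the most regions and the only one of the 10 whose groups did not overlap in regions per gene. Since a summit goes to the nearest gene, numbers of different genes also depend on the gaps to their neighbours. These were 1252325 and 677729 bp at Klf6 and 21080 and 7625 bp at Ier2. Nr4a2 had few regions with gaps of 1508685 and 92175 bp. The part of these gaps in the numbers was not tested.

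**Figure D1:**
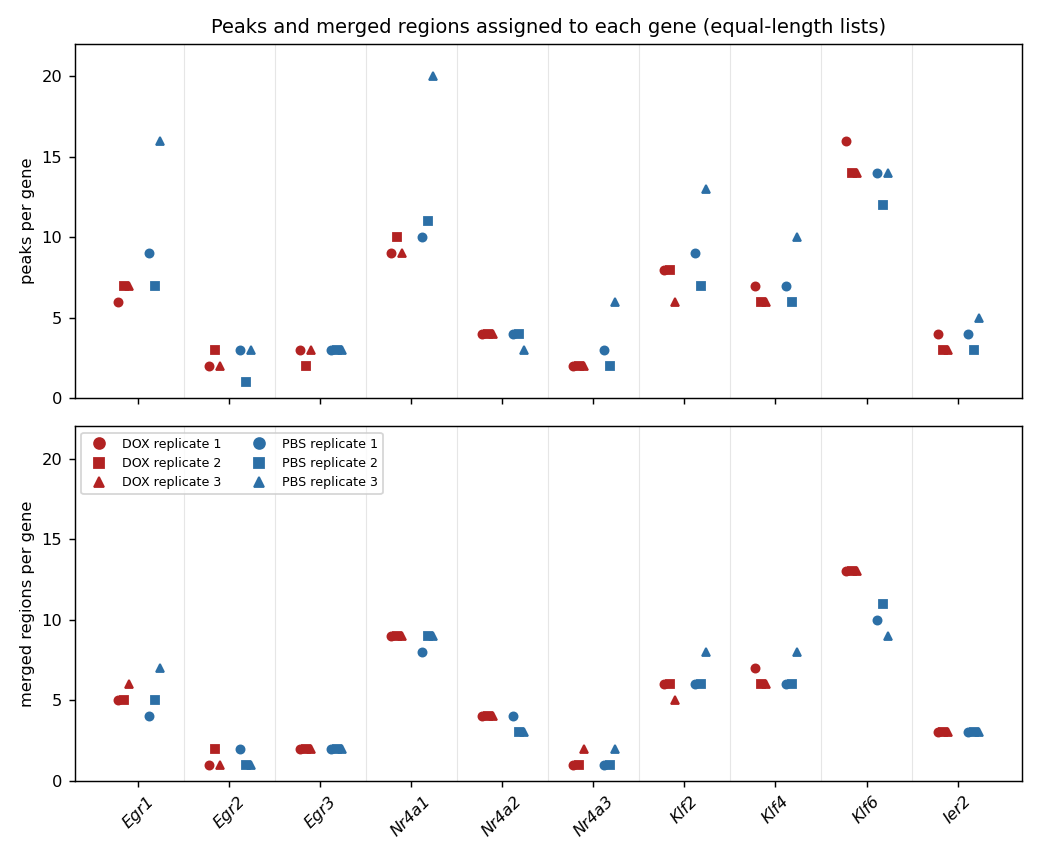
Numbers of peaks (top) and of merged regions (bottom) assigned to each gene in the equal-length lists, 1 point per library, DOX left of PBS. Klf6 has 13 regions in each DOX library and 9 to 11 in PBS, and PBS replicate 3 has the most peaks at Egr1, Nr4a1, Klf2 and Klf4.

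Regions per gene were tested with limma on log2 of the number plus 0.5, over the 8694 genes with a mean of at least 2 regions. Of the 10 genes, 8 could enter; Egr2 and Nr4a3 were below that mean. After Benjamini-Hochberg adjustment over all genes 0 of the 8 passed, where 0.863% of all genes were higher and 0.276% lower in DOX. One of the 8, Klf6, had an unadjusted p under 0.05, against 5.46% of all genes. Its regions per gene were higher in DOX by 0.37 ± 0.08 (SE, log2 scale, adjusted p = 0.349, limma), in all 3 DOX libraries against all 3 PBS libraries. Groups without overlap were seen in that direction in 3.95% of all genes. The direction at Klf6 turned when each list was cut to its 32731 strongest peaks. Klf6 then had 5 regions in each DOX library and 6 in each PBS library. The difference was -0.24 with an adjusted p of 4.52e-07 (limma), from numbers with no spread within groups. Of 5282 genes tested on those lists, 80 were called. Peaks per gene, tested in the same way with limma over 8783 genes, gave 0 of 10 called, 0 of 10 at an unadjusted p under 0.05 and 0 of 10 without overlap, where 0.558% of all genes were called higher, 0.558% lower and 6.01% had an unadjusted p under 0.05. Peaks per gene did not overlap with DOX higher in 2.71% of all genes and with DOX lower in 2.35%. For regions per gene the share with DOX lower was 0.863%, and 0 of the 8 were among them. Of the 99 genes called on regions per gene over the whole genome, 93 had no spread within groups, and of 98 called on peaks, 92. Without PBS replicate 1, Nr4a2 passed the adjusted threshold on regions per gene (0.36, adjusted p = 2.55e-05, limma), likewise with no spread within groups. There 243 of 8755 genes were called.

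The extra regions of Klf6 were weak ones. The 2 intervals chr13:5804437-5804902 and chr13:5866987-5869073 were held by all 3 DOX libraries and by 1 PBS library each. The first had summit pileups of 27, 30 and 43 reads in DOX and was held in PBS by replicate 2 alone, with 19 reads. The second, inside the gene, had 24, 27 and 31 reads in DOX and 6 reads in PBS replicate 3, the only PBS library that held it. Another 2, chr13:5871406-5872099 and chr13:5930958-5931342, were absent from PBS replicate 3 alone. None of the 4 ranked above 41565 in any library.

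In the full deposited lists, which are longest in DOX, the 10 genes had 70, 76 and 105 regions in DOX and 71, 66 and 52 in PBS. Egr3 had 4, 5 and 5 regions in DOX and 2 in each PBS library, and it was the 1 gene of 9 with a mean of at least 2 regions whose groups did not overlap there, where 10.7% of all genes had no overlap with DOX higher and 0.0303% with DOX lower. On these lists Egr3 passed the limma test on regions per gene, at 1.04 ± 0.09 (SE, log2 scale, adjusted p = 0.0206), as did 0.868% of all genes with DOX higher and 0 with DOX lower. The same gene had 2 regions in every library once the lists were of equal length. Deposited peaks per gene did not overlap in 3 of 10: Egr3 with 5, 5 and 6 in DOX and 4, 3 and 3 in PBS, where 8.29% of all genes were higher in this way, and Egr1 and Nr4a1 in the other direction, where 0.507% were. Egr1 had 9, 9 and 10 deposited peaks in DOX and 18, 12 and 16 in PBS. Nr4a1 had 11, 11 and 10 in DOX and 13, 15 and 20 in PBS. The fewer DOX peaks of Egr1 covered more bases, 22849, 22654 and 23943 bp in DOX and 18413, 21962 and 20312 bp in PBS.

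Nr4a3 showed a split within DOX. It had 4, 3 and 20 deposited regions in DOX and 7, 2 and 2 in PBS. Of the 20 in DOX replicate 3, 15 were in that library only, all with a summit inside the gene, at pileups of 10 to 19 reads and a median width of 188 bp. In the same way 5 regions of Klf4 and 3 of Klf6 were in DOX replicate 3 only. This library had the highest background pileup of the 6, and the part of depth in these weak regions was not tested.

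A region held by all 3 libraries of 1 group and none of the other was sought next. In the equal-length lists 0 of the 63 regions of the 10 genes were of this kind in either direction, where 0.792% of all 78613 regions were DOX only and 0.303% PBS only. The deposited lists held 2 DOX-only regions among the 120, against 1.9% of all regions, and 0 PBS-only regions, against 0.038%. One lies inside Egr3, at chr14:70079994-70080683, with summit pileups of 10, 10 and 22 reads in the DOX libraries. The other lies 61356 bp past Klf6, at chr13:5931600-5931868, with 23, 18 and 19 reads. Both fell below the equal-length limit in at least 2 DOX libraries, since the weakest peaks kept there had 20, 21 and 28 reads in DOX and 16, 14 and 5 in PBS.

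Wide open domains appeared at these genes once the peaks of all 6 libraries were merged. Among the 10, 6 genes, namely Egr1, Nr4a1, Nr4a3, Klf2, Klf4 and Klf6, had a merged region over 5 kb, as did 107 of 21627 genes (0.495%). This limit was chosen after the widths were seen, and no test was made of it. The median widest region over the 15422 genes that had one was 1155 bp. By the width of their widest region Egr1 came 6th among all genes, Nr4a1 15th, Klf6 52nd, Klf2 60th, Nr4a3 62nd and Klf4 90th. Ier2 with 4730 bp, Egr2 with 4120 bp and Egr3 with 3320 bp followed at ranks 125, 197 and 392. Nr4a2 stood apart, at rank 4236 with 1585 bp. Single peaks over 5 kb were fewer: 2, 3 and 6 of the 10 genes had one in DOX and 1, 2 and 1 in PBS, of 45, 58 and 66 genes in DOX and 25, 38 and 13 in PBS. Egr1 was the only one of the 10 with such a peak in every library.

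**Figure D2:**
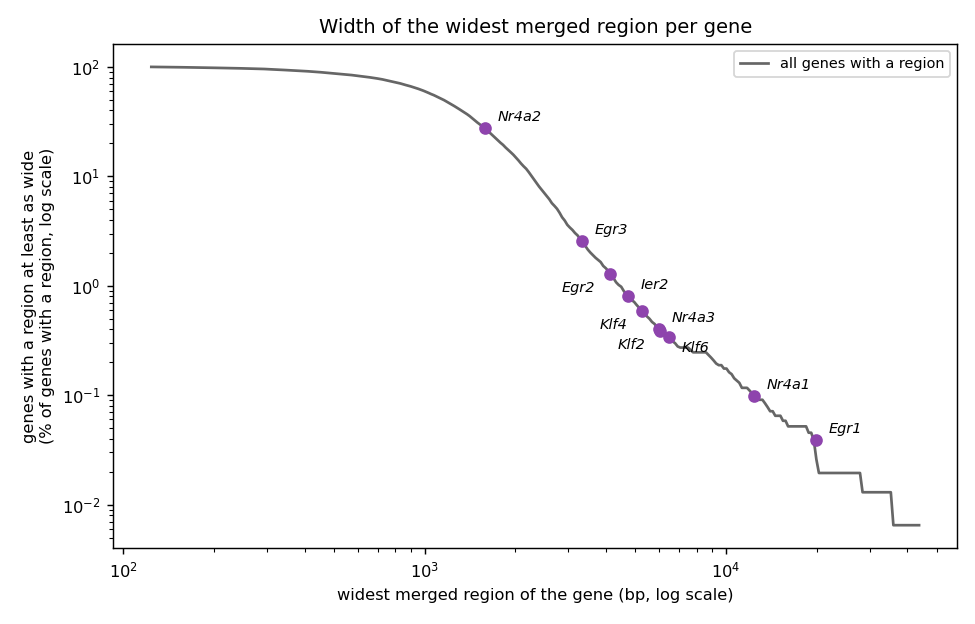
Width of the widest merged region per gene (x axis, bp, log scale) against the percent of the 15422 genes with a region that have one at least as wide (y axis, log scale). The line is all such genes and the points are the 10 genes. Egr1 lies at 19838 bp, and Nr4a2, at 1585 bp, is the only one of the 10 left of 3320 bp.

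Egr1 itself spans 3750 bp at chr18:34861207-34864956, and its open domain ran over 19838 bp, chr18:34859044-34878881. The domain began 2163 bp below the gene and ended 13925 bp beyond its upper end, within the 37829 bp that separate Egr1 from Etf1. Its widest single peak measured 17099, 14984 and 17953 bp in DOX and 9870, 12911 and 6715 bp in PBS. The groups did not overlap. Peaks covered 97.1%, 98.8% and 97.8% of the domain in DOX and 73.2%, 87.7% and 86.9% in PBS. The domain was listed as 2 peaks in each DOX library and as 6, 3 and 9 peaks in PBS. Widest peaks separated the groups in this direction in 35.2% of all 49098 regions that every library held, and in 46.8% of the 111 of them over 5 kb. In the opposite direction the shares were 0.0754% and 0.901%. Among the 40 such regions of the 10 genes DOX was wider without overlap in 10 and narrower in 0. Over all of these regions the median covered length was 0.26 higher in DOX on the log2 scale.

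At Nr4a1 a domain of 12352 bp, chr15:101268558-101280909, covered the 3′ part of the gene and 6114 bp beyond it. This domain was weak, at a median rank of 39452. Its summit pileups, not scaled for depth, were 38, 44 and 74 reads in DOX and 35, 31 and 17 reads in PBS. A single peak spanned all of it in DOX replicate 3. The widest peak there measured 9405, 6127 and 12352 bp in DOX and 4233, 5550 and 1859 bp in PBS, again without overlap, which makes 2 of the 6 wide regions of these genes against the 46.8% above. Klf2 had a domain of 6061 bp that began 262 bp past the gene, chr8:72321917-72327977, with widest peaks of 1356, 4751 and 5894 bp in DOX and 1318, 3421 and 887 bp in PBS. There the groups overlapped, and the Klf2 domain was likewise weak, at a median rank of 41344. At Klf6 (chr13:5860427-5866909, 6483 bp), Nr4a3 (chr4:48042546-48048541, 5996 bp) and Klf4 (chr4:55529478-55534735, 5258 bp) the wide region was the one over the start of the gene. The widest peaks measured 1700, 3455 and 5068 bp in DOX and 1760, 3544 and 1165 bp in PBS at Klf6. At Nr4a3 they measured 4772, 5049 and 5761 bp in DOX and 3187, 4849 and 2186 bp in PBS, and at Klf4 4806, 4258 and 5258 bp in DOX and 3543, 4281 and 2100 bp in PBS. The groups overlapped at all 3 genes.

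**Figure D3:**
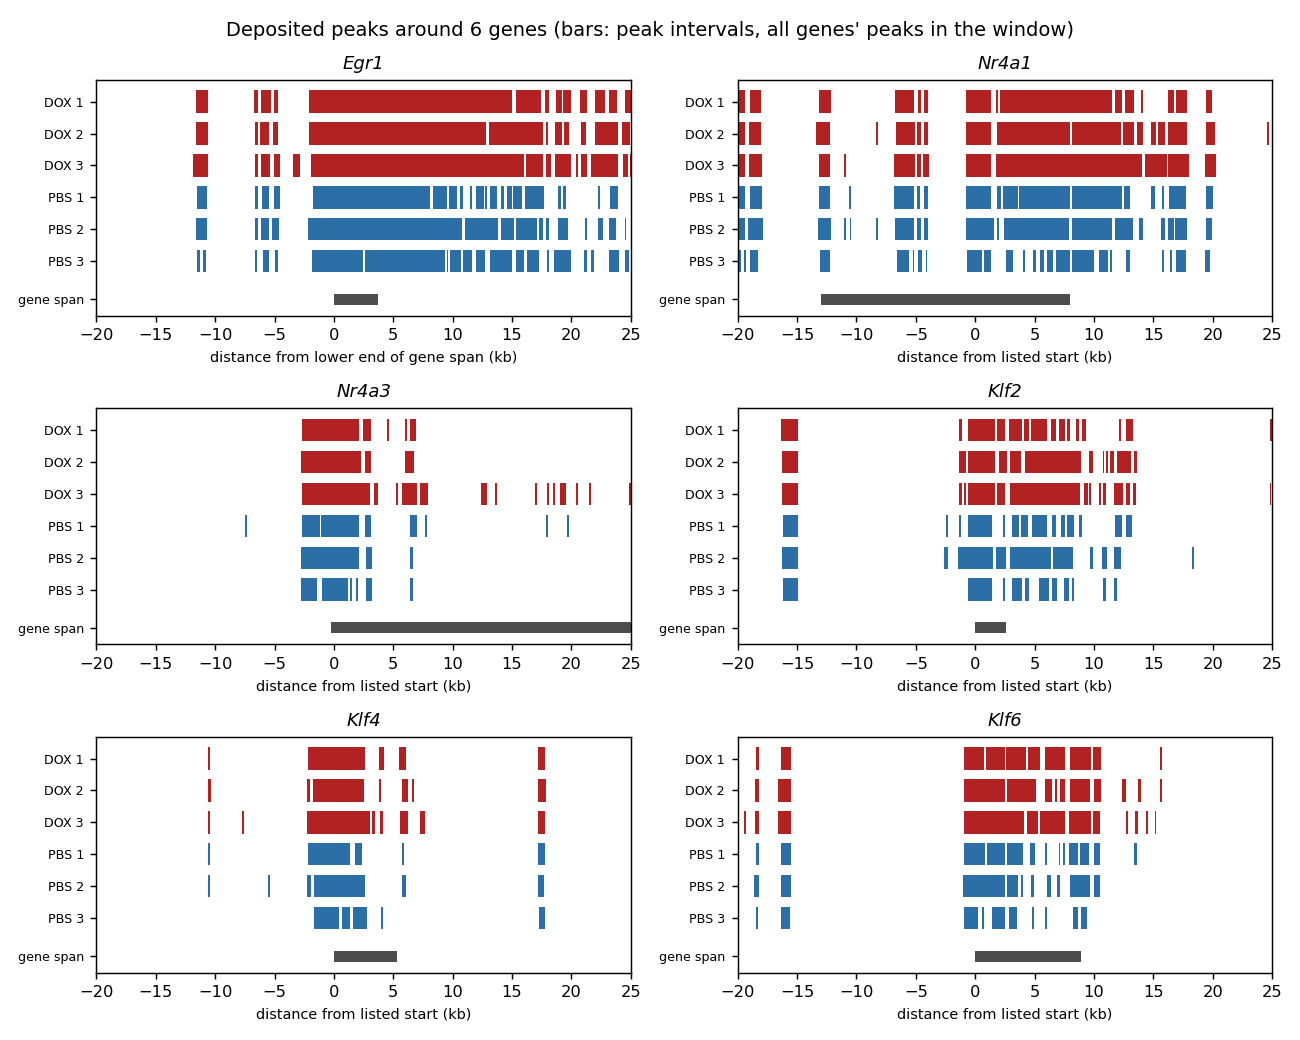
Deposited peaks from 20 kb before to 25 kb past the start of 6 genes, as bars at their true length, 1 row per library with the 3 DOX rows above the 3 PBS rows, and the gene span in gray. For Egr1 the zero point is the lower end of the gene span. DOX rows show 1 long bar over Egr1 of 14984 to 17953 bp, PBS rows shorter ones of 6715 to 12911 bp, and Nr4a3 has scattered narrow bars in DOX replicate 3.

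Strength was compared by rank within a library, where 1 is the strongest of the 65462 peaks. Ranks were turned into normal scores over the 49098 regions that all 6 libraries held, so a higher score means a stronger region. The 10 genes had 63 regions, and all 6 libraries held 40 of them (63.5%, against 62.5% of all regions). Of the 63, 17 had their summit inside the gene, 20 within 10 kb of it and 26 farther away.

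The regions over the gene starts ranged widely in strength, each ranked in a library by its strongest peak. Egr1, Egr3 and Ier2 had no listed start here, so the strongest region touching the gene was taken as their start region. Klf2 was the strongest, at ranks 421, 502 and 444 in DOX and 349, 334 and 377 in PBS (chr8:72317645-72320753). Its summit lay 54 to 91 bases before the listed start. The groups did not overlap and DOX was lower, by -0.09 ± 0.09 in rank score (SE, adjusted p = 0.687, limma). Over all genes with a ranked peak, 2.35% had a stronger best peak than Klf2.

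Klf6 came next, with its start region at ranks 1338, 834 and 1472 in DOX and 1085, 1174 and 299 in PBS. The difference was -0.19 ± 0.11 (SE, adjusted p = 0.490, limma), and PBS replicate 3 stood far above the rest. Without PBS replicate 3 the difference was -0.02. After it came the Egr1 domain, at ranks 699, 1180 and 1013 in DOX and 1546, 1436 and 1567 in PBS. All 3 DOX libraries ranked it above all 3 PBS libraries, with summit pileups of 492, 502 and 668 reads in DOX and 335, 330 and 161 reads in PBS, not scaled for depth. The rank score was 0.20 ± 0.07 higher in DOX (SE, adjusted p = 0.263, limma), which does not pass. Left out in turn, the libraries gave 0.14 to 0.25.

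Nr4a3 ranked 2339, 2618 and 2189 in DOX and 2622, 2348 and 2105 in PBS. In DOX and PBS replicate 2 its listed start lay inside the strongest peak of the region, but the summit was far before the start. It lay at -2367, -2371 and -2371 from the start in DOX and at -1822 in PBS replicate 2. In PBS replicates 1 and 3 its listed start lay in a weaker peak of the region, at ranks 5684 and 3520, with the summit at -177. The ranks of this region are therefore not ranks of a summit at the start. Nr4a1 ranked 4711, 3560 and 2256 in DOX and 3434, 3589 and 4478 in PBS (chr15:101266036-101268462). Ier2 ranked 3652, 3254 and 3626 in DOX and 3962, 3569 and 4184 in PBS (chr8:84661040-84665769). In each of these 3 the groups overlapped, and the differences in rank score were -0.00495, 0.06 and 0.05 with adjusted p of 0.983, 0.789 and 0.736 (limma).

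Egr3 ranked 4068, 3420 and 4070 in DOX and 3510, 3757 and 4843 in PBS (chr14:70074339-70077658). Egr2 ranked 6519, 7236 and 6489 in DOX and 5544, 6935 and 5091 in PBS (chr10:67535263-67539382). Klf4 was the weakest, at ranks 12346, 10587 and 9540 in DOX and 9994, 11712 and 7340 in PBS. These groups overlapped as well, with differences of 0.02, -0.09 and -0.09 and adjusted p of 0.916, 0.572 and 0.667 (limma). For Klf4 the difference became 0.00025 without PBS replicate 3. The start of Nr4a2 needs a remark: its region, chr2:57123302-57124583, was nearest to the predicted gene LOC105244150, which overlaps it, and so counts to that gene. It ranked 8125, 7921 and 7343 in DOX and 6622, 8019 and 8354 in PBS, a difference of -0.02 ± 0.06 (SE, adjusted p = 0.941, limma).

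In order of median rank the 10 start regions, taken as above, ran Klf2, Klf6, Egr1, Nr4a3, Nr4a1, Ier2, Egr3, Egr2, Nr4a2 and Klf4. Between neighbours the ranges over the 6 libraries separated at only 2 steps, from Egr1 to Nr4a3 and from Egr3 to Egr2. The ranges of the other neighbours overlapped. Within a library the order of these regions was Nr4a3 above Nr4a1 and Egr2 above Nr4a2 in 6 of 6 libraries. For the peak over the listed start of Nr4a3 this did not hold in PBS replicate 1, where it ranked 5684 and Nr4a1 3434. In DOX and PBS replicate 2 the Nr4a3 rank came from a summit far before the start, as given above. Klf2 above Klf6, Ier2 above Egr3 and Nr4a2 above Klf4 held in 5 of 6, Klf6 above Egr1 in 4 and Nr4a1 above Ier2 in 2. The Klf genes held both the first 2 places and the last.

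**Figure D4:**
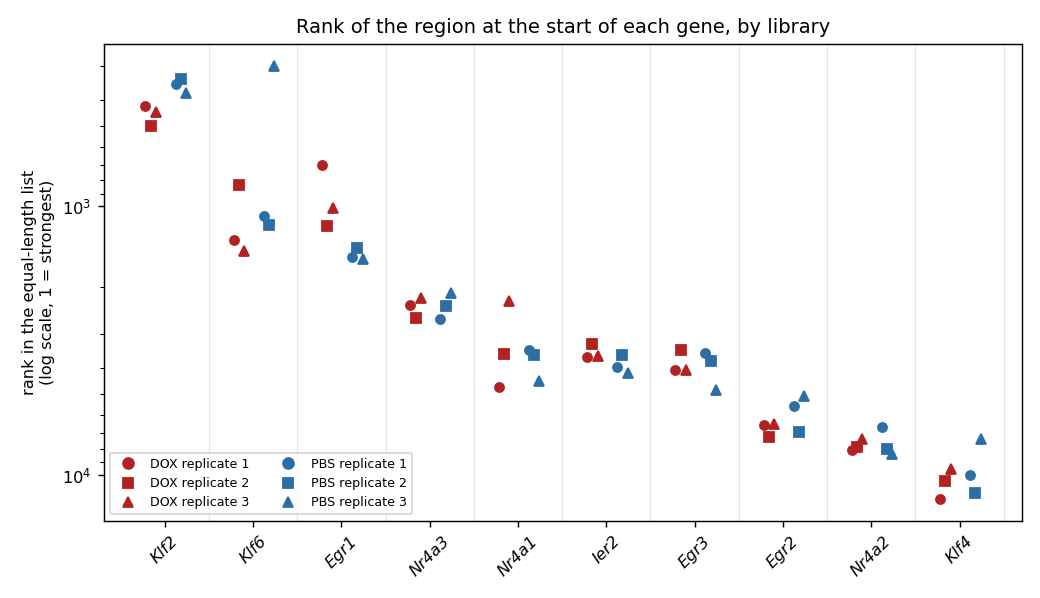
Rank of the start region of each gene in the equal-length lists (y axis, log scale, strongest at the top), 1 point per library, DOX left of PBS. For Egr1, Egr3 and Ier2 it is the strongest region touching the gene. Egr1 ranks 699 to 1180 in DOX and 1436 to 1567 in PBS, and Klf2 ranks 421 to 502 in DOX and 334 to 377 in PBS.

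Away from the starts, the strongest region was a site 7388 bp below the Nr4a1 span, chr15:101245891-101247520. It ranked 1287, 1239 and 1354 in DOX and 917, 1607 and 967 in PBS, above the Nr4a1 start itself in all 6 libraries. Klf2 had a site 15175 bp from the gene, chr8:72302693-72304177, at ranks 8405, 8576 and 8949 in DOX and 9025, 8230 and 7512 in PBS. Klf6 had one at its 3′ end, chr13:5869389-5871237, at ranks 9862, 9284 and 10866 in DOX and 9532, 9692 and 9222 in PBS. These 3 sites were strong in both groups, and the groups overlapped at each.

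Klf4 had its strongest distant site 12266 bp from the gene, chr4:55514652-55515326, at ranks 13577, 14572 and 15332 in DOX and 12943, 12820 and 11911 in PBS. All 3 DOX libraries ranked it below all 3 PBS libraries, while the summit pileups, not scaled for depth, were 165, 168 and 215 reads in DOX and 129, 122 and 60 reads in PBS. Nr4a2 had its strongest site inside the gene, chr2:57115819-57117327, at ranks 16234, 15584 and 18716 in DOX and 17828, 15935 and 20029 in PBS. The weaker second sites of Ier2 (chr8:84659000-84660774), Egr1 (chr18:34855011-34855873) and Egr3 (chr14:70077780-70079588) had median ranks of 23013, 25817 and 42561 over the 6 libraries. Egr2 and Nr4a3 had no second region that all 6 libraries held.

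The limma test of region rank called 0 of the 40 regions at an adjusted p under 0.05, and 0.0% of all 49098 regions in either direction. At an unadjusted p under 0.05 there were 4 of 40, against 13.2% of all regions. Besides the Egr1 domain they were 1 region of Nr4a1 and 2 of Klf6. The Nr4a1 region, 5656 bp below the gene at chr15:101247744-101248996, ranked 17284, 16280 and 12834 in DOX and 15162, 8350 and 9055 in PBS. Its score was lower in DOX by -0.30 ± 0.10 (SE, adjusted p = 0.223, limma), and the groups overlapped. This region passed the adjusted threshold when PBS replicate 1 was left out, at -0.44 ± 0.08 (SE, adjusted p = 0.0442, limma). That library, at rank 15162, was the PBS library in which the region was weakest and the one that overlapped DOX. The number of all regions called in that setting is not given here, and no result is read from this call. Over all regions the number called ranged from 0 to 81 under the alternatives run.

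At Klf6 the site 59196 bp below the gene, chr13:5801899-5802670, ranked 16317, 17180 and 17502 in DOX and 21993, 17300 and 27851 in PBS (0.26 ± 0.11, SE, adjusted p = 0.314, limma). The site 18369 bp below, chr13:5842889-5843320, ranked 36399, 32861 and 33225 in DOX and 30081, 20059 and 32154 in PBS (-0.37 ± 0.16, SE, adjusted p = 0.346, limma). Neither passed. Without PBS replicate 3 the first difference was 0.109, and without PBS replicate 2 the second was -0.19.

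Groups did not overlap with DOX higher in 3 of 40 regions, against 9.37% of all regions, and with DOX lower in 3 of 40, against 9.41%. The higher ones were the Egr1 domain, chr2:57117504-57117999 inside Nr4a2 and chr13:5844855-5845966 at 16155 bp from Klf6. The lower ones were the Klf2 start, the Klf4 site at 12266 bp and the Klf6 site at 18369 bp. Over the 40 regions the median difference in rank score was -0.02, with 19 higher and 21 lower in DOX. Over all 49098 regions it was -0.00018.

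**Figure D5:**
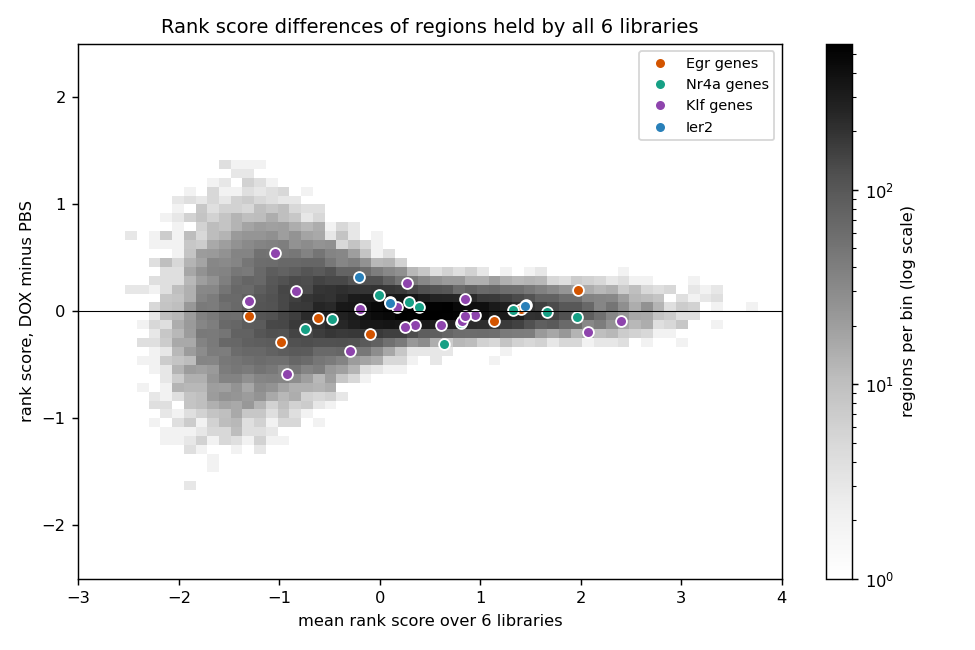
Difference in rank score, DOX minus PBS (y axis), against the mean rank score over the 6 libraries (x axis, strong regions to the right), for the 49098 regions that all libraries held. Gray shows the number of regions per bin and points are the 40 regions of the 10 genes, which range from -0.58 to 0.55 and lie within the gray cloud.

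Averaged over the regions of each gene, the gene rank score gave the same count. With limma over 14078 genes 0 of the 10 were called, and 0.0% of all genes in either direction. One of 10, Klf4, had an unadjusted p under 0.05, against 12.8% of all genes. Its mean score was 0.12 ± 0.12 in DOX and 0.29 ± 0.06 in PBS (SD, n = 3 each), a difference of -0.18 ± 0.08 (SE, adjusted p = 0.380, limma). All 3 DOX libraries lay below all 3 PBS libraries, where 10.2% of all genes did. Nr4a2 was the 1 gene of 10 with all 3 DOX libraries above all 3 PBS libraries, at mean scores of 0.27 ± 0.01 in DOX and 0.18 ± 0.07 in PBS (SD, n = 3 each), against 8.73% of all genes. For Ier2 the mean scores were 0.52 ± 0.03 in DOX and 0.37 ± 0.20 in PBS (SD, n = 3 each), with overlap. Of the 10 genes, 4 were higher and 6 lower in DOX, with a median difference of -0.02, and the median of all genes was -0.01.

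Nr4a1 and Klf6 had the most regions held by all libraries, 8 each. Of 2677 genes with at least 5 such regions, those with gene rank scores nearest to Nr4a1 over the 6 libraries were Fam120a, Sp7 and Des, at Euclidean distances of 0.181, 0.196 and 0.201. The nearest to Klf6 were Gng7, Incenp and C1rl, at 0.142, 0.161 and 0.168. Sp7 encodes osterix, a factor of osteoblast formation.

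Other genes of the immediate early and feedback response were taken as a list of 48, with AP-1 factors, ternary complex factors, further Klf genes and phosphatases that end MAP kinase signalling. At an adjusted p under 0.05 limma called 0 of 42 on regions per gene, 0 of 42 on peaks per gene, 0 of 47 on gene rank score and 0 of 248 regions on rank. At an unadjusted p under 0.05 these were 2, 2, 7 and 28, beside 5.46%, 6.01%, 12.8% and 13.2% of all features. The median difference in gene rank score was 0.04 over the 47, with 35 higher and 12 lower in DOX. It was -0.02 over the 10 genes and -0.01 over all genes, of which 6714 were higher and 7364 lower. In 3 of the list's 397 regions all 3 DOX libraries and no PBS library held the region, beside 0.792% of all regions, and 0 regions were PBS only, beside 0.303%.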

How the data were processed

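The members of the gene set and the related list were chosen with earlier results of these data known. The authors deposited 1 peak list per library, in build mm10 per the submitters' processing notes, which name MACS2 2.2.7.1, Bowtie2 2.4.5, Trim Galore 0.6.6, Picard 2.10.9, DiffBind 3.16.0, DESeq2, FastQC 0.11.5 and MultiQC 1.7 without saying what each did. No source used here gives the settings of peak calling or the read shift for the transposase. A deposited peak has a fold enrichment (a ratio), a −log10 p, the matching −log10 q, a score and a summit offset in bp, all the authors' own values and not scaled between libraries. Pileups were solved from fold and −log10 p. They came out whole within 0.05 reads.

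Chromosomes 1 to 19 and X were used, without the 13 to 19 chromosome Y peaks of a library. Gene spans came from RefSeq. Peaks were ranked by −log10 p, cut to equal lists, and merged across libraries. A library held a region with 1 bp of overlap. Numbers and normal scores were tested with limma 3.58.1 in R 4.3.3 (trend, 3 DOX against 3 PBS libraries, Benjamini-Hochberg over all features) after a check on simulated data. Named were all 10 genes, each start region, the strongest region away from it, regions past a test or with separate groups, and the 3 most like genes. Same-numbered libraries had correlated deviations of 0.113, -0.101 and 0.0441, so the numbers were not taken as pairs. Alternatives were the deposited lists, the 32731 strongest peaks, each library left out, other overlaps, distances, pseudocounts, ranking values and moderation. A raised spread was added after seeing the data. With 3 libraries a group an exact permutation test cannot go below p = 0.10, and none was used.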

Additional observations from a re-analysis of the deposited data

How the results depend on the processing

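Of the members' summary counts, 61 values under alternatives were equal or close to the reported count and 12 moved. The number of the 10 genes called was 0 as reported for regions per gene and for peaks per gene. It became 1 for regions per gene in the deposited lists (Egr3), where 86 of 9903 genes were called. It became 1 with the 32731 strongest peaks (Klf6, reversed to -0.24), where 80 of 5282 genes were called. With a library left out it was 0 to 1 (Nr4a2 without PBS replicate 1, where 243 of 8755 genes were called). For peaks per gene it became 1 with the 32731 strongest peaks (Klf4, -0.29, no spread within groups). Region rank gave 0 to 1 with a library left out, and gene rank score gave 0 under all alternatives run. Regions of the members listed in DOX only, 0 as reported, numbered 2 in the deposited lists and 0 to 1 with a library left out. Those listed in PBS only numbered 1 with the 32731 strongest peaks and 0 to 2 with a library left out. Shares of all regions under the shortened and left-out settings are not given here, and no result is read from these counts.

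Some differences in rank score of the start regions turned sign with a library left out. They ranged from -0.0312 to 0.0199 for Nr4a3, from -0.0407 to 0.149 for Nr4a1 and from -0.0399 to 0.0291 for Nr4a2. For Egr3 they ranged from -0.0285 to 0.0568 and for Klf4 from -0.164 to 0.00025. The cause was not tested. Over the whole genome the calls ranged from 0 to 244 on regions per gene (99 as reported), 0 to 284 on peaks per gene (98) and 0 to 81 on region rank (0), and the raised spread left 0 of the first pair.

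With the replicate number as a block, 0 members were called in any of the 4 tests, and calls over all features were 95 on regions per gene, 59 on peaks per gene, 0 on gene rank score and 29 on region rank. At the lower end of the equal-length lists, below which a region could not be seen, the weakest peak kept had 28 reads in DOX replicate 3 and 5 reads in PBS replicate 3.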

Other observations

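Wide open domains were also frequent among the other immediate early and feedback genes. Of the list of 48, 14 had a merged region over 5 kb, which is 29.2%, against 0.495% of all genes and 60% of the 10 genes. They were Fos, Fosb, Jun, Junb and Jund, which encode AP-1 subunits, Myc, the phosphatase Dusp1, Btg1, Btg2, Zfp36l1, Zfp36l2, Ccn1, Rhob and Gadd45b. The regions were merged over both groups, the 5 kb limit was chosen after the widths were seen, and no test was made.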
